A study of Mus musculus with 6 samples.

Results

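The genes by which epithelial and mesenchymal cell states are usually told apart were examined in mouse liver tumour cell lines. The set held 10 genes, taken by gene name from the 53465 genes of the count table: the epithelial genes Cdh1, Epcam, Krt8 and Krt18, the mesenchymal genes Vim and Cdh2, and the transcription factor genes Snai1, Snai2, Zeb1 and Zeb2. All 10 were found, each as a single row. RNA of 6 primary liver cancer cell lines of C57BL/6 background had been sequenced, 3 of the Myc_Utx genotype (lines 2A, 2B and 2D, from Kdm6a-deficient tumours) and 3 of the Myc_p53 genotype (lines 1, 2 and 3, from p53 knockout tumours, used as the control). In both groups the tumours had been started in adult livers by hydrodynamic tail vein injection of a transposon carrying MYC together with a plasmid encoding Cas9 and a guide RNA against the second gene, so all 6 lines share the MYC transgene. Each line came from a tumour of a different mouse and therefore counts as 1 biological replicate, and its cultures were passaged until other cell types were no longer seen. No line with MYC alone was part of the comparison, so an effect of Kdm6a loss and one of p53 loss cannot be told apart.

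Epithelial cells are held together by E-cadherin, the product of Cdh1, and by tight junctions and desmosomes, and their cytoskeleton contains keratin filaments, of which keratin 8 (Krt8) paired with keratin 18 (Krt18) is the form of simple epithelia such as the liver. In epithelial-mesenchymal transition (EMT), factors of the SNAIL and ZEB families bind E-box sequences and repress Cdh1 and other epithelial genes, while vimentin (Vim) and N-cadherin (Cdh2) are produced. Hepatocytes carry keratins 8 and 18 only and hold very little Epcam, which marks bile duct cells and liver progenitors, and cells grown on plastic commonly contain vimentin.

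Total counts were 4656103 to 5473042 in Myc_Utx lines and 5370608 to 6937497 in Myc_p53 lines. Levels are given as CPM, a gene's read count relative to the size of its library, the latter corrected by TMM, a scaling factor from the bulk of genes, and differences as log2 fold changes with Myc_Utx minus Myc_p53, so that a value below 0 is a lower level in Myc_Utx. A gene counted as changed at a Benjamini-Hochberg adjusted p under 0.05 in the quasi-likelihood F test of edgeR. Trp53 RNA had 275.9 to 295.5 CPM in Myc_Utx lines and 32.4 to 35.8 CPM in Myc_p53 lines. Kdm6a RNA overlapped between the groups, at 39.7 to 49.0 CPM in Myc_Utx and 42.5 to 69.5 CPM in Myc_p53, and a count over a whole gene does not show whether a guide has cut it. Hepatocyte genes, which would mark the labelled tissue, were low: the summed level of 12 of them was 8.97 to 47.9 CPM in Myc_Utx and 43.6 to 91.5 CPM in Myc_p53. Albumin (Alb) had 4 to 26 counts per line and Cps1 0 to 2. Fgb had 11, 6 and 199 counts in Myc_Utx lines 2A, 2B and 2D and 160, 100 and 104 in Myc_p53 lines 1, 2 and 3, and Hnf4a 3, 3 and 0 against 64, 8 and 47. The bile duct genes Krt19 and Spp1 had 25 to 2468 and 382 to 7275 counts. Markers of endothelial cells did not exceed 4 counts in any line. In bulk RNA, fewer cells of a type and less RNA per cell cannot be told apart.

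Line 2 of Myc_p53 stood apart from lines 1 and 3 of its group in several of the genes described here, and the genes and list counts that turned on it are given with and without it. Line 1 of Myc_p53 was lowest in the summed level of 10 fibroblast and stellate cell markers. The sum was 33.8 CPM in it and 436.0 and 3049.6 CPM in lines 3 and 2, with 1942.3 to 2677.8 CPM in Myc_Utx lines. Most of the sum in Myc_Utx lines and Myc_p53 line 2 was Col3a1, at 1730.5 to 2558.2 and 2721.0 CPM. Col1a1 and Pdgfrb were also lowest in line 1, but Dcn was not. Dcn had 13.6, 1.67 and 15.5 CPM in Myc_p53 lines 1, 2 and 3 and at most 0.562 CPM in Myc_Utx lines.

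Of the 10 genes, 9 passed the filter on low counts and Epcam did not. At the adjusted p, 0 of the 9 were higher in Myc_Utx, where 6.99% of the 11510 genes tested were, and 1 was lower, Cdh1, where 7.69% of all genes were. A count of 1 among 9 is near that background. At an unadjusted p under 0.05, 3 of the 9 passed, Cdh1, Krt8 and Krt18, all with lower values in Myc_Utx. Of all 11510 genes tested, 4026 passed it, a share near that of the 9 genes. DESeq2 also called 0 higher and 1 lower. The groups did not overlap for Cdh1, with all Myc_Utx lines lower (20.9% of genes tested showed this), and no member had all Myc_Utx lines higher (21.1% of genes tested). The median log2 fold change of the 9 genes was -0.96, beside -0.012 for all genes tested. Cdh1, the gene called, passed the filter through its counts in Myc_p53 lines alone.

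**Figure D1:**
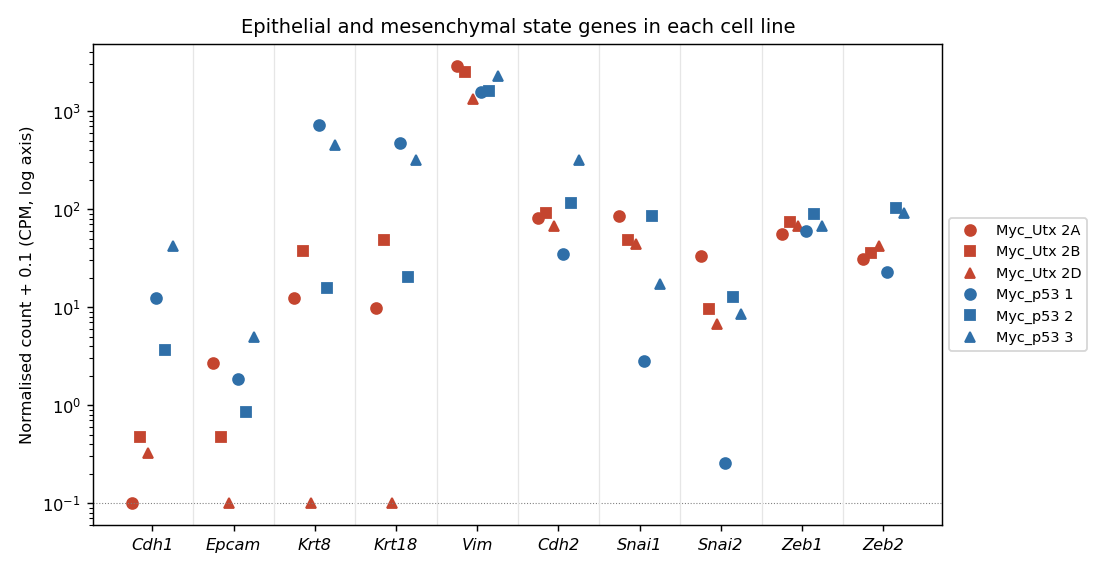
Level of each of the 10 genes in each of the 6 cell lines, as normalised counts in CPM plus 0.1 on a log axis, with Myc_Utx lines in red and Myc_p53 lines in blue; points on the dotted line had 0 counts. The groups separate for Cdh1 only, line 2 of Myc_p53 lies among the Myc_Utx lines for Krt8 and Krt18, and Vim is high in all 6 lines.

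The promoters of Krt8 and Krt18 are shown because both genes moved together from line to line, as described below, and because E-boxes are the letters that SNAIL and ZEB factors bind. Both genes lie next to each other on chromosome 15, on opposite strands and with their start sites facing each other, separated by 23873 bases. The 250 bases before each start site are printed 5′ to 3′ along the gene's strand (RefSeq, build GRCm38.p6), Krt8 from chr15:102004343-102004592 on the minus strand and Krt18 from chr15:102027966-102028215 on the plus strand. Capitals mark the E-box CACCTG, searched together with its reverse complement CAGGTG, which is the same site read from the other strand.
Krt8: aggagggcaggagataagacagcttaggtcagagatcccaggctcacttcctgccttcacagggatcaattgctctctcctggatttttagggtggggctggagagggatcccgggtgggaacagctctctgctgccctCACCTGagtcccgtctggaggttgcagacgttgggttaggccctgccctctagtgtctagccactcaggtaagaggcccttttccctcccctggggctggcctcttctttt
Krt18: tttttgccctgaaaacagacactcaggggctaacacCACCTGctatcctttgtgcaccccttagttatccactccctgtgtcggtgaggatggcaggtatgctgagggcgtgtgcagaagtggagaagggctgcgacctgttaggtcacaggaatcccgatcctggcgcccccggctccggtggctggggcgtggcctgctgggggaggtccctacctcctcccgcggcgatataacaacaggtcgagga
The Krt8 window held 1 match, with its first base 111 bases before the start, and the Krt18 window 1 match, 214 bases before the start. The same search found 2 matches before Epcam, 1 before Snai1 and 0 before Vim and before each of the start sites of Zeb2. Of 32851 mouse promoter windows of the same length, 17.2% held at least 1 match. A match describes the letters only, and binding was not measured in these samples.

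Cdh1 (ENSMUSG00000000303, chr8:106603351-106670246, plus strand, GRCm38), which encodes E-cadherin, had 0, 2 and 1 counts in Myc_Utx lines 2A, 2B and 2D and 78, 19 and 296 counts in Myc_p53 lines 1, 2 and 3. All 3 Myc_Utx lines were thus at or under 3 counts, and the lowest Myc_p53 line was line 2. These are 0.199 ± 0.188 CPM (SD, n = 3) against 19.4 ± 20.3 CPM (SD, n = 3). Pooled over lines and scaled to library size, Cdh1 was 103.8 times higher in Myc_p53, with a 95% exact interval of 35.3 to 505.5 that covers counting error only. The log2 fold change was -6.44 (SE 1.27, edgeR adjusted p = 0.0274), a value that at so few counts depends on the prior count of the fit. The two-sided exact permutation test gave p = 0.1, the smallest that 3 lines against 3 allow. The call was kept without Myc_p53 line 1 (adjusted p = 0.0462) or line 2 (adjusted p = 0.0171) and was lost without any other line, with adjusted p = 0.0602 without Myc_p53 line 3 and 0.0843 to 0.103 without a Myc_Utx line. DESeq2 gave a log2 fold change of -6.58 (adjusted p = 3.98e-06).

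Even where it was present, Cdh1 was far from abundant. Per transcript length, as TPM computed here from the counts and the deposited transcript lengths (counts per kilobase, scaled to the same sum in every line), it reached 9.70, 2.75 and 34.5 in Myc_p53 lines 1, 2 and 3, against 1430.3, 30.5 and 925.2 for Krt8 in the same lines. Cdh1 was never among the 5 most abundant of the 10 genes in any line.

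Epcam (ENSMUSG00000045394, chr17:87635979-87651106, plus strand), an adhesion molecule of the bile duct epithelium, was close to the limit of detection in both groups. It had 13, 2 and 0 counts in Myc_Utx lines 2A, 2B and 2D and 11, 4 and 34 counts in Myc_p53 lines 1, 2 and 3. The groups overlapped, and line 2A of Myc_Utx was above lines 1 and 2 of Myc_p53. Without the filter its log2 fold change was -1.26 (SE 1.07), and a difference was not detectable at this depth.

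Krt8 (ENSMUSG00000049382, chr15:101996711-102004342, minus strand) and Krt18 (ENSMUSG00000023043, chr15:102028216-102032026, plus strand) encode the keratin partners of simple epithelia. Krt8 had 12.2, 37.4 and 0 CPM in Myc_Utx lines 2A, 2B and 2D and 717.0, 15.4 and 446.3 CPM in Myc_p53 lines 1, 2 and 3. Krt18 had 48, 256 and 0 counts in the former and 2984, 108 and 2208 counts in the latter. In both genes lines 1 and 3 of Myc_p53 were above all others, whereas line 2 fell between lines 2A and 2B of Myc_Utx. Line 2D of Myc_Utx had 0 counts of either keratin, which allows up to 3 counts or 0.668 CPM.

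The differences were large but not past the threshold. Krt8 had a log2 fold change of -4.55 (SE 1.64, adjusted p = 0.105) and Krt18 one of -3.79 (SE 1.55, adjusted p = 0.139), each with an exact permutation p of 0.2. Without Myc_p53 line 2 they were -5.11 (adjusted p = 0.0463) and -4.34 (adjusted p = 0.074), so the call for Krt8 turned on that line. The pseudogene Krt8-ps, which can share reads with Krt8, had 0 to 5 counts. The antisense gene Gm36026 overlaps exons of Krt8 and was not analysed here.

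The ratio between the keratins moved less than their levels. The log2 ratio of Krt8 to Krt18, per kilobase and with 0.5 added to each count, lay between -0.74 and 0.24 in the 5 lines with counts, although the level of Krt8 ranged from 12.2 to 717.0 CPM in those lines. The group means were -0.37 ± 0.35 (SD, n = 3) in Myc_Utx and -0.12 ± 0.54 (SD, n = 3) in Myc_p53, and the exact permutation test gave p = 0.6. The ratio of line 2D rests on the added 0.5 alone.

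Vim (ENSMUSG00000026728, chr2:13573927-13582826, plus strand), which encodes the intermediate filament of mesenchymal cells, was high in every line. It had 2890.0, 2527.8 and 1326.7 CPM in Myc_Utx lines 2A, 2B and 2D and 1549.1, 1595.7 and 2300.7 CPM in Myc_p53 lines 1, 2 and 3. The groups overlapped, with the highest and the lowest level both in Myc_Utx. The log2 fold change was 0.31 (SE 0.31, adjusted p = 0.517). Per transcript length Vim was the most abundant of the 10 genes in 5 of the 6 lines and the third in Myc_p53 line 1, after Krt8 and Krt18.

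The balance of keratins and vimentin was also compared within lines. The log2 ratio of Krt8 plus Krt18 to Vim, per kilobase, was 1.17 and -0.04 in Myc_p53 lines 1 and 3, -3.87 in line 2, -3.27 and -5.47 in Myc_Utx lines 2B and 2A and -10.95 in line 2D. Myc_p53 line 2 was therefore below Myc_Utx line 2B. The group means differed by -5.65, from -6.57 ± 3.95 (SD, n = 3) in Myc_Utx to -0.91 ± 2.63 (SD, n = 3) in Myc_p53, with an exact permutation p of 0.2. The value of line 2D, which had 0 counts of both keratins, is set by the added 0.5, and without that line the difference was -3.46.

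**Figure D2:**
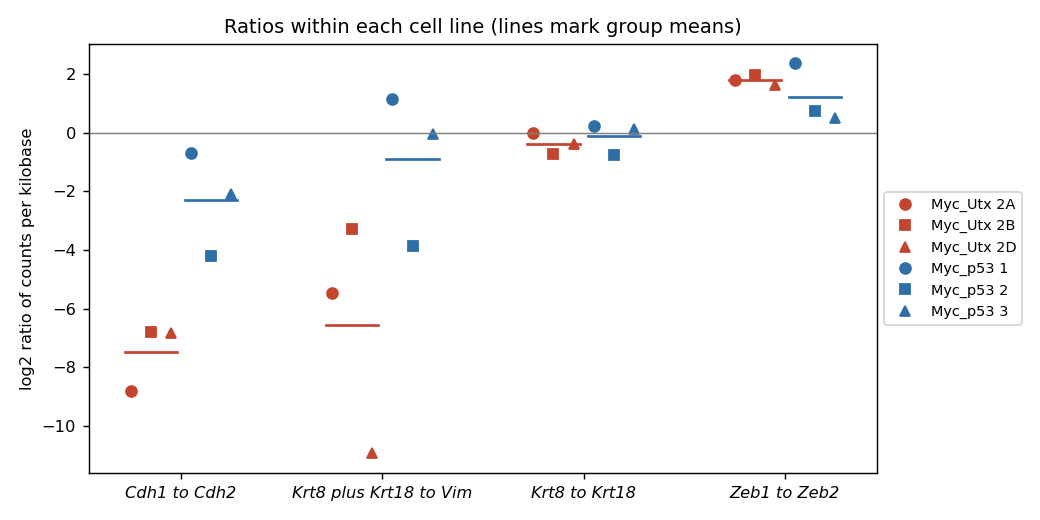
Log2 ratios of counts per kilobase within each cell line, with 0.5 added to each count; red points are Myc_Utx lines, blue points Myc_p53 lines and short horizontal lines group means. The ratio of Cdh1 to Cdh2 separates the groups, with Myc_Utx values that depend on the added 0.5 because Cdh1 had at most 2 counts there. The ratio of keratins to Vim does not because Myc_p53 line 2 is at -3.87, and the ratio of Krt8 to Krt18 stays near 0.

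Cdh2 (ENSMUSG00000024304), which encodes N-cadherin, was present in all lines. It had 80.2, 91.7 and 66.6 CPM in Myc_Utx lines 2A, 2B and 2D, close together, and 34.9, 116.0 and 314.1 CPM in Myc_p53 lines 1, 2 and 3, which enclosed them. The log2 fold change was -0.96 (SE 0.70, adjusted p = 0.367) and turned to 0.078 without Myc_p53 line 3. Cdh2 was thus not called higher in the lines with the low Cdh1.

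The ratio of Cdh1 to Cdh2 did not overlap between the groups. Its log2 was -8.83, -6.80 and -6.82 in Myc_Utx lines 2A, 2B and 2D and -0.68, -4.19 and -2.08 in Myc_p53 lines 1, 2 and 3, so Cdh2 exceeded Cdh1 per length in all 6 lines. The difference of the means was -5.17, with an exact permutation p of 0.1, and it ranged from -6.11 to -4.35 when a line was left out.

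Snai1 (ENSMUSG00000042821), the founding SNAIL repressor, had 84.0, 48.5 and 44.1 CPM in Myc_Utx lines 2A, 2B and 2D and 2.69, 84.9 and 17.0 CPM in Myc_p53 lines 1, 2 and 3. Its level in Myc_p53 line 2, the line with the lowest Cdh1 and keratins of that group, was close to that in Myc_Utx line 2A. Line 2D, with 0 counts of both keratins, had the lowest Snai1 of the Myc_Utx lines. The lowest level of all was in Myc_p53 line 1. A relation of Snai1 to Cdh1 or the keratins was not tested. The log2 fold change was 0.76 (SE 1.02, adjusted p = 0.627), and without Myc_p53 line 2 it was 2.58 (adjusted p = 0.074).

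Snai2 (ENSMUSG00000022676), the related repressor also called Slug, had 33.1, 9.55 and 6.68 CPM in Myc_Utx lines 2A, 2B and 2D and 0.158, 12.6 and 8.41 CPM in Myc_p53 lines 1, 2 and 3. Myc_p53 line 1 had a single count, while the other 5 lines lay between 6.68 and 33.1 CPM. The log2 fold change was 1.22 (SE 1.15, adjusted p = 0.483).

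Zeb1 (ENSMUSG00000024238), a zinc finger repressor of Cdh1, spanned the narrowest range of the 10 genes relative to its level. It had 56.0, 72.8 and 67.3 CPM in Myc_Utx lines 2A, 2B and 2D and 60.2, 88.6 and 66.4 CPM in Myc_p53 lines 1, 2 and 3. The groups overlapped almost fully, and the log2 fold change was -0.13 (SE 0.19, adjusted p = 0.650). Its sign turned with transcript length offsets (0.11) and without Myc_p53 line 2 (0.048).

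Zeb2 (ENSMUSG00000026872), the second ZEB repressor, had 30.7, 35.6 and 41.6 CPM in Myc_Utx lines 2A, 2B and 2D and 22.6, 102.7 and 90.0 CPM in Myc_p53 lines 1, 2 and 3. Lines 2 and 3 of Myc_p53 were above all Myc_Utx lines and line 1 was below them. The log2 fold change was -1.0 (SE 0.52, adjusted p = 0.224), and without Myc_p53 line 1 it was -1.43 (adjusted p = 0.0304). The antisense gene Zeb2os, whose exons overlap those of Zeb2, had at most 8 counts in any line.

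The ratio of Zeb1 to Zeb2 was above 0 in all 6 lines. Its log2 per kilobase was 1.82, 1.99 and 1.65 in Myc_Utx lines 2A, 2B and 2D and 2.37, 0.75 and 0.52 in Myc_p53 lines 1, 2 and 3, and the means differed by 0.61 (exact permutation p = 0.4). None of the 4 repressor genes was called higher in the Myc_Utx lines, and all 4 had counts in all 6 lines.

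**Figure D3:**
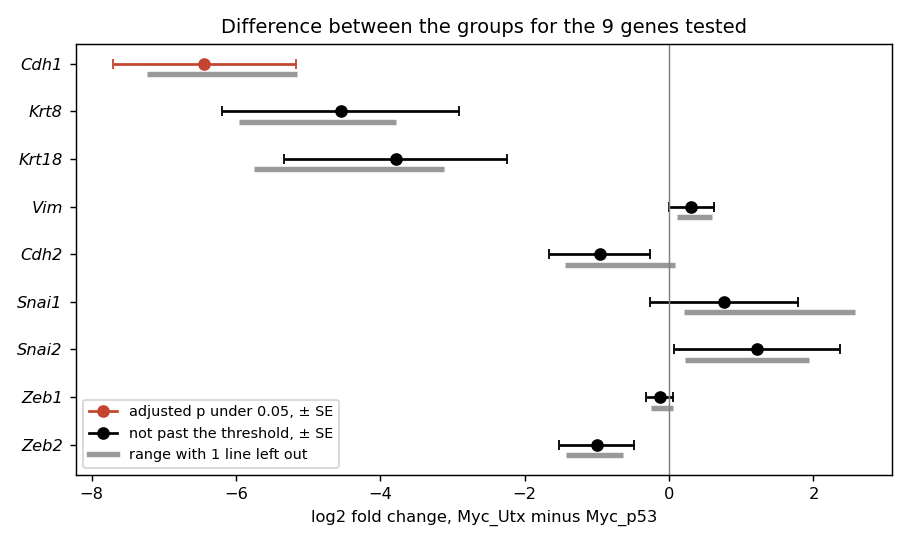
Log2 fold change of Myc_Utx minus Myc_p53 for the 9 genes tested, with the SE as error bars and the range over the fits that each leave out 1 line as a grey bar; red marks an adjusted p under 0.05 with all lines. Cdh1 lies at -6.44, Krt8 and Krt18 have SEs of 1.64 and 1.55, and the grey bars of Cdh2 and Zeb1 cross 0.

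By TPM the order of the group means was Vim, Snai1, Krt18, Cdh2, Krt8, Snai2, Zeb1, Zeb2, Epcam and Cdh1 in Myc_Utx, at 1522.2, 116.2, 44.6, 31.5, 29.8, 26.1, 20.3, 5.73, 1.57 and 0.138 TPM. The SDs of Krt18, Krt8 and Snai2 were 59.0, 34.5 and 23.4 TPM, so each gene from Krt18 to Zeb1 lay within the spread of its neighbour in that order. In Myc_p53 the order was Vim, Krt8, Krt18, Snai1, Cdh2, Zeb1, Cdh1, Zeb2, Snai2 and Epcam, at 1397.8, 795.3, 701.8, 77.4, 70.9, 25.4, 15.7, 13.1, 12.7 and 4.42 TPM. With SDs of 708.9 TPM for Krt8 and 593.3 TPM for Krt18, neither could be ranked against the other, and with 96.4 TPM for Snai1 and 67.2 TPM for Cdh2 the same held for these neighbours.

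Other genes of epithelial junctions were then counted. Of 22 genes of tight junctions and desmosomes, 13 were tested, and 0 were called higher and 5 lower in Myc_Utx, beside 6.99% and 7.69% of all genes tested. The median log2 fold change of the 13 was -2.74, but several, Dsc2, Cldn3 and Cgn among them, passed the filter only through their counts in Myc_p53, where they had to be high. Where at least 10 counts were required in every line, 7 genes were left, with 2 called lower and a median of -1.28. Dsc2, a desmosomal cadherin, had 0 counts in all Myc_Utx lines and 68, 70 and 54 counts in Myc_p53 lines 1, 2 and 3, at least 50.7-fold higher in Myc_p53 when 3 counts over the Myc_Utx group are allowed (adjusted p = 0.0141). Cldn3, a tight junction claudin, had 1, 2 and 0 counts against 624, 126 and 119, a ratio of 229.5 with a 95% exact counting interval of 78.3 to 1115.1 (adjusted p = 0.0169). Cgn, which encodes the junction plaque protein cingulin, fell by 4.26 on the log2 scale (SE 0.97, adjusted p = 0.0371), and Dsp, which ties keratin filaments to desmosomes, fell by 4.16 (SE 1.08, adjusted p = 0.0497). F11r, an immunoglobulin-like adhesion molecule of tight junctions, was the fifth and fell by 1.85 (SE 0.43, adjusted p = 0.0403). In Dsc2, unlike in the keratins, Myc_p53 line 2 was level with lines 1 and 3.

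These junction calls depended on the lines used. Without Myc_p53 line 2 the count was 12, and without 1 of the others it was 0 to 2, with 0 for Myc_Utx line 2A, 1 each for 2B and 2D, 2 for Myc_p53 line 1 and 1 for line 3. Calls over all genes moved likewise: 885 were lower with all lines and 1118 without Myc_p53 line 2. Without Myc_Utx lines 2A, 2B or 2D they were 1, 38 and 28, and without Myc_p53 lines 1 or 3 they were 627 and 57. The loss of calls was therefore not particular to junction genes. DESeq2 called 13 of the 22 lower, and 1578 of all genes. In the level of the whole list, the Myc_Utx lines held 363.2 to 510.2 CPM and Myc_p53 lines 1, 2 and 3 1755.0, 540.7 and 1278.8 CPM, without overlap. At or under 3 counts in every Myc_Utx line were 9 of the 22 genes, and in every Myc_p53 line 0. Fewer genes of any kind had a count in Myc_Utx lines, 16002 to 16958 against 18201 to 19683 in Myc_p53 lines. The share of all genes at or under 3 counts was not determined, so the 9 cannot be read as particular to junction genes.

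The adherens junction is not limited to epithelia. Of 10 of its genes, the catenins and nectins among them, all were tested, with 1 higher and 2 lower in Myc_Utx (6.99% and 7.69% of all genes tested), a median of -0.64 on the log2 scale and 8 of the 10 values below 0. In 5 of the 10 all Myc_Utx lines were below all Myc_p53 lines (20.9% of all genes tested), and in 1 all were above (21.1%). Of the 11510 genes tested, 5846 had values below 0. Nectin2 fell by 2.55 (SE 0.30, adjusted p = 0.0141) and Afdn, whose product afadin binds nectins, fell by 0.90 (SE 0.20, adjusted p = 0.0353), whereas Nectin3 rose by 0.97 (SE 0.21, adjusted p = 0.0318). Ctnnb1, which encodes β-catenin, had a log2 fold change of 0.19 (SE 0.13, adjusted p = 0.326), and was picked after its value was seen. Tjp1, the scaffold ZO-1 of the tight junction list, had one of -0.12 (SE 0.20, adjusted p = 0.714) and was picked likewise.

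Of 9 further keratins, Krt19 and Krt80 were tested and 0 were called in either direction by edgeR. Krt19 passed an unadjusted p under 0.05, and DESeq2, which tested more of the genes, called 3 of the 9 lower. Krt19, a bile duct keratin, had 234, 25 and 129 counts in Myc_Utx and 2088, 325 and 2468 in Myc_p53 (log2 fold change -3.22, SE 0.95, adjusted p = 0.0653). Its groups did not overlap, and Myc_p53 line 2 was again the lowest of its group. Krt80 had a log2 fold change of -1.56 (SE 0.77, adjusted p = 0.20). Krt7 and Krt17 did not pass the filter on low counts and are named after their values were seen. Krt7 had 1, 0 and 2 counts in Myc_Utx lines against 100, 3 and 459 in Myc_p53 lines. Krt17 had 0, 0 and 0 against 41, 7 and 126. Without Myc_p53 line 2, 5 of the further keratins were called lower, and without any 1 of the other lines 0 were.

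Of 10 genes of the epithelial cell surface and of polarised transport, 4 were tested, and 0 were higher and 2 lower (6.99% and 7.69% of all genes tested). Of these 4, Lsr, Mal2 and Spint2 were low in Myc_Utx and passed the filter mainly through Myc_p53, and where at least 10 counts were required in every line Cd24a alone was left and 0 were called. The count was 4 lower without Myc_p53 line 2, 1 without Myc_p53 line 1 and 0 without any 1 of the other lines. Spint2, a serine protease inhibitor of epithelial membranes, had 12, 14 and 8 counts in Myc_Utx and 464, 20 and 270 in Myc_p53 (log2 fold change -4.07, SE 1.02, adjusted p = 0.0464). Lsr, a component of tricellular junctions, had 0, 6 and 2 against 133, 32 and 147 (log2 fold change -4.85, SE 0.94, adjusted p = 0.0269). Cd24a, chosen after its values were seen, had a level of 247.3 to 310.6 CPM in Myc_Utx and a log2 fold change of 0.45 (SE 0.23, adjusted p = 0.203).

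**Figure D4:**
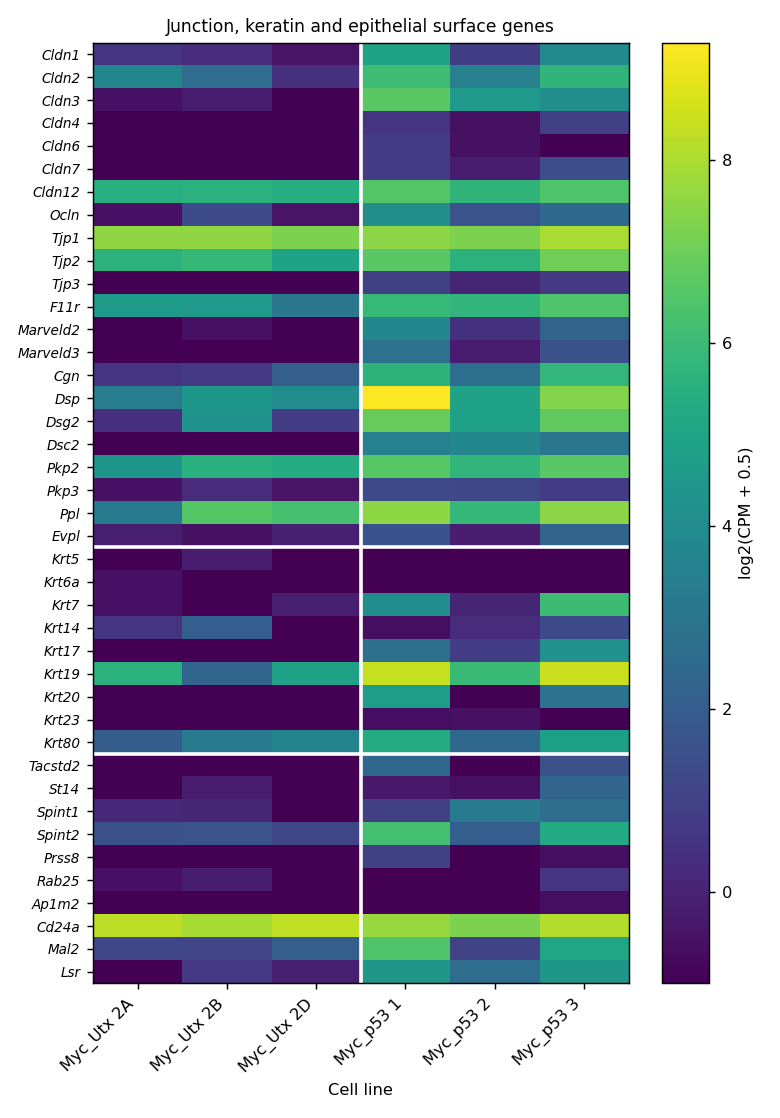
Levels of 22 tight junction and desmosome genes, 9 further keratins and 10 epithelial surface genes, separated by horizontal white lines, as log2 of CPM plus 0.5 (colour scale) in the 6 cell lines (columns). Many genes near the bottom of the scale in the 3 Myc_Utx columns have counts in Myc_p53 lines 1 and 3, while Myc_p53 line 2 lies between, as for Dsp with 163 counts against 47 to 112 in Myc_Utx; Cd24a and Tjp1 are high in all columns.

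Of 12 regulators that maintain epithelial genes, transcription factors and the splicing regulators Esrp1 and Esrp2, 5 were tested. Of these, 1 was called higher and 1 lower, beside 6.99% and 7.69% of all genes, and the median log2 fold change was -0.38. With 5 genes tested, counts of 1 are too small to be set apart from those shares. Without Myc_p53 line 2, 3 were called lower, and without any 1 of the other lines 0 were. The count called higher was 1 without Myc_p53 line 1 or line 2 and 0 without any 1 of the others. Klf4, a Krüppel-like factor of differentiated epithelia, rose by 1.99 (SE 0.31, adjusted p = 0.0185), with 842, 830 and 919 counts in Myc_Utx and 418, 203 and 207 in Myc_p53. Its relative Klf5 fell by 1.01 (SE 0.26, adjusted p = 0.0488). Esrp1, an epithelial splicing regulator named after its values were seen, had 0 counts in all Myc_Utx lines and 5, 2 and 35 in Myc_p53 lines 1, 2 and 3.

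Of 10 other EMT-linked transcription factors, 7 were tested, 0 were higher and 1 lower, beside 6.99% and 7.69% of all genes, with a median of -0.27. A count of 1 among 7 genes is too small to be set apart from those shares. Without Myc_p53 line 2, 1 was called higher and 1 lower, and without any 1 of the other lines 0 were called. Sox4 fell by 0.79 (SE 0.18, adjusted p = 0.0371), with 572, 815 and 489 counts against 1425, 981 and 1690. Prrx1, a mesenchymal homeobox factor chosen after its values were seen, had 56, 548 and 147 counts in Myc_Utx lines 2A, 2B and 2D and 11, 1663 and 94 in Myc_p53 lines 1, 2 and 3. Within the Myc_p53 lines it was, like Snai1, highest in line 2 and lowest in line 1.

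Of 24 mesenchymal genes, 19 were tested, and 1 was higher and 1 lower, near the 6.99% and 7.69% of all genes. The median was -0.16 and 10 of the 19 values were below 0, beside 5846 of the 11510 genes tested. Without Myc_p53 line 2, 2 were higher and 2 lower, and without Myc_p53 line 1, 1 was higher and 2 lower. Without Myc_p53 line 3, 0 were higher and 1 lower, and without any 1 Myc_Utx line 0 were called. Timp1, an inhibitor of matrix metalloproteinases, rose by 1.86 (SE 0.38, adjusted p = 0.0288), with 296, 327 and 262 counts in Myc_Utx and 48, 109 and 149 in Myc_p53. Cnn1, the smooth muscle protein calponin, fell by 6.24 (SE 0.70, adjusted p = 0.0129), with 3, 7 and 2 counts against 147, 393 and 633. Cnn1 passed the filter through its counts in Myc_p53 lines alone. Where at least 10 counts were required in every line, 13 mesenchymal genes were left and 0 were called lower. Fn1, which encodes fibronectin and was chosen after its values were seen, was abundant in both groups, at 1462.7 ± 410.1 CPM (SD, n = 3) in Myc_Utx and 3356.9 ± 2132.7 CPM (SD, n = 3) in Myc_p53, with a log2 fold change of -1.20 (SE 0.57, adjusted p = 0.184). Col3a1 had 8677, 12288 and 11488 counts in Myc_Utx and 65, 14680 and 518 in Myc_p53, so that the control lines spanned the whole range.

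Of the 4 genes of vimentin's filament partners, 3 were tested, 0 were higher and 1 lower (6.99% and 7.69% of all genes tested). Nes, which encodes nestin, an intermediate filament that assembles with vimentin and is known from progenitor cells, had 108, 101 and 43 counts in Myc_Utx and 3749, 840 and 5355 in Myc_p53 (log2 fold change -4.91, SE 0.68, adjusted p = 0.0164). Plec, whose product plectin links filaments to junctions, had a log2 fold change of 0.18 (SE 0.16, adjusted p = 0.443).

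**Figure D5:**
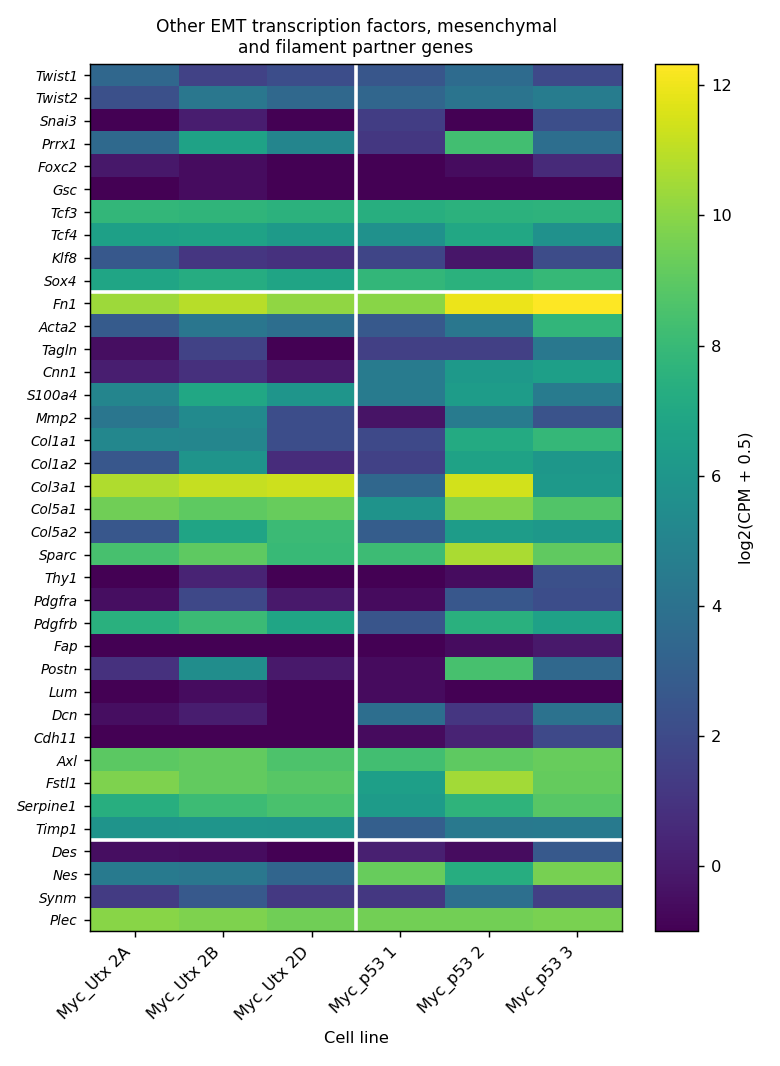
Levels of 10 other EMT-linked transcription factors, 24 mesenchymal genes and 4 vimentin partner genes, separated by horizontal white lines, as log2 of CPM plus 0.5 (colour scale) in the 6 cell lines (columns). Col3a1, Fn1 and Plec are high, Cnn1 and Nes are lower in all 3 Myc_Utx columns, and Myc_p53 line 1 lacks much of the Col3a1 and Prrx1 signal of line 2.

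Over these lists together, leaving out 1 line moved the number of genes called lower between 0 and 30 and called higher between 0 and 5. Over all genes these numbers moved between 1 and 1118 and between 3 and 836, so single calls rest on all lines being used. Macrophage markers moved the same way as the epithelial genes. Of 7, 6 were tested, 0 were higher and 5 lower in Myc_Utx (6.99% and 7.69% of all genes tested), the 5 having passed the filter through Myc_p53 lines alone, and their summed level was 2.79 to 5.99 CPM in Myc_Utx and 98.1, 39.5 and 107.7 CPM in Myc_p53 lines 1, 2 and 3. Csf1r, the receptor that defines the lineage, had 0, 1 and 0 counts against 259, 39 and 243, while the general leukocyte marker Ptprc had 0 to 3 counts in all lines. Of the bile duct markers, 0 of 4 tested were called by edgeR. At an unadjusted p under 0.05, 2 passed, beside 4026 of the 11510 genes tested. These 2 were Krt19, lower with -3.22, and Sox9, higher with 0.94 in Myc_Utx. Summed levels of the bile duct markers were 554.0 to 1462.4 CPM in Myc_Utx and 167.6 to 1558.7 CPM in Myc_p53, lowest in line 2. Of 3 hepatocyte markers tested, 0 were called higher and 1 lower (6.99% and 7.69% of all genes tested). Apob, the 1 called, had 0, 6 and 1 counts against 88, 71 and 378 and passed the filter through Myc_p53 lines alone. Of 4 fibroblast markers tested, 0 were called, also at an unadjusted p under 0.05. Of the 6 endothelial and 3 leukocyte markers none passed the filter. The part of other cell types in the differences of Cdh1, the keratins and the junction genes was not tested.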

How the data were processed

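RNA sequencing counts of 3 Myc_Utx and 3 Myc_p53 liver tumour cell lines were analysed, grouped by the genotype in the labels. The deposited table gives the authors' unnormalized read counts for each Ensembl gene beside its coordinates and a transcript length. The submitters' processing notes name Trimmomatic 0.36, STAR 2.5.3a, featureCounts 1.6.3 and DESeq2 1.20.0 with the builds GRCm38 and mm10, whereas the paper's methods name another counter and a human build. The table holds mouse genes, 95.9% of them with coordinates equal to GENCODE M21 (GRCm38). Whether strand was used in counting is not given in the sources used here, so reads of overlapping antisense genes cannot be told apart from those of their partners.

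The fit was made in edgeR 4.0.16 (R 4.3.3). The function filterByExpr (minimum count of 10) left 11510 of 53465 genes, libraries were scaled with TMM and groups compared with the quasi-likelihood F test, with Benjamini-Hochberg adjustment over all genes tested. A standard error is the absolute log2 fold change over the root of its F statistic. Normalised levels and ratios within a line were compared with two-sided exact permutation tests. For a group of 0 counts, 3 counts over the group were allowed, and for 1 to 3 counts an exact (Clopper-Pearson) interval of the count ratio was formed. Intervals and floors cover counting error only.

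The 10 genes, the lists and the markers were chosen with earlier results of these data known. Of each list, up to 4 called genes with the largest changes and a mean count of at least 20 are named or, where none was called, the 2 with the highest mean count. Further genes were named after their values were seen. Alternatives were no filter, at least 10 counts in every line, DESeq2 size factors, total counts only, DESeq2 1.42.0, transcript length offsets, leaving out each line and, for ratios, a pseudocount of 1 or no length scaling. On simulated counts of this comparison, with 200 of 11756 genes changed by 2 on the log2 scale, 91.5% of these were found again and 5.67% of all calls were false. Every simulated gene was given the same variation between lines, a coefficient of 33.4%. These shares therefore do not cover genes that spread more between lines, Cdh1, Krt8 and Krt18 among them. Promoter entries were found for 6 of the 10 genes in a RefSeq table, and no reads were realigned.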

Additional observations from a re-analysis of the deposited data

How the results depend on the processing

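No paired analysis was possible because Myc_Utx and Myc_p53 lines carry different replicate numbers. Of the 110 alternative fold changes of the 10 genes, 101 were the same in direction and call (for Epcam, which had no test, within the spread between lines). Reversed were Cdh2 without Myc_p53 replicate 3 (0.078, in a range of -1.44 to 0.078 over the lines left out) and Zeb1 with transcript length offsets (0.11) and without Myc_p53 replicate 2 (0.048, in a range of -0.25 to 0.048), and the cause was not tested. Cdh1 failed the filter of at least 10 counts in every line, which left 0 of the 10 genes called lower. Leaving out each line gave 0 to 2 of them lower, 3 to 836 of all genes higher and 1 to 1118 lower, and for the context lists together 0 to 5 genes higher and 0 to 30 lower, against 3 higher and 13 lower with all lines. Of the lists, 25 genes were lower with no filter, 8 with at least 10 counts in every line and 32 with DESeq2, which tested more genes. DESeq2 called 1281 of all genes higher and 1578 lower. The 4 ratio differences kept their sign under each alternative. With 3 lines a group and total counts of 4656103 to 6937497, Epcam and most of the low keratins were kept out of the test by the filter on low counts, and without the filter Epcam had an adjusted p of 0.536 in edgeR.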

Other observations

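The genes whose level went most like that of 3 of the genes over the 6 lines were looked up among the 9511 genes whose counts averaged 50 or more, as Pearson's r of log2 CPM. The lines share their groups and the 6 points carry no p. For Cdh1, with 0 to 2 counts in Myc_Utx lines, they were Dlg1 (r = 0.997), which encodes a junction scaffold of cell polarity, Gm340 (r = 0.997) and the phosphatase gene Ptpn13 (r = 0.994). Pearson's r takes no account of the size of a change. Dlg1 moved far less than Cdh1, with 538, 634 and 497 counts in Myc_Utx lines and 990, 748 and 1272 in Myc_p53 lines. Ptpn13 had 365, 489 and 309 counts in Myc_Utx lines 2A, 2B and 2D and 1697, 907 and 3031 in Myc_p53 lines 1, 2 and 3. For Epcam, with 0 to 34 counts, they were Map4 (r = 0.992), Hdac7 (r = 0.988) and Cc2d2a (r = 0.985). For Vim they were Zcchc2 (r = 0.985), the phosphatase gene Dusp6 (r = 0.985) and the protocadherin-like gene Fat1 (r = 0.977). Dusp6 had 368, 350 and 77 counts in Myc_Utx lines and 135, 131 and 449 in Myc_p53 lines.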
